A study of Mus musculus with 23 samples.

Results

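The 50 genes described here code for WNT ligands, their receptors, secreted WNT antagonists, R-spondins and intracellular or nuclear effectors. From 35576 genes quantified in 23 RNA sequencing libraries, they were chosen by name and role and not by a threshold on their values. Earlier results of these data were known when they were chosen. They comprised 18 WNT ligands, 10 frizzled receptors, the co-receptors Lrp5 and Lrp6, the receptors Ror1, Ror2 and Ryk, 8 antagonists, 3 R-spondins, and 6 effectors (Lef1, Tcf7, Tcf7l1, Tcf7l2, Axin2 and Frat1). All 50 were found in the quantification. The study compared GL261 and CT2A, murine glioma lines that form tumors in the brains of immunocompetent mice.

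Each library came from an ex vivo tumor in the right striatum of a female albino C57BL/6 mouse, 7 to 10 weeks old at implantation. All lines carried firefly luciferase. GL261 cells were cultured with G418 and CT2A cells with puromycin. In the first experiment, the whole tumor was sequenced after implantation of 100000 cells of GL261-luc2 or 25000 of CT2A-luc, and 4 GL261 and 4 CT2A bulk libraries were obtained from tumors harvested on days 22 to 24. In the second, 200000 cells of other luciferase-carrying sublines of GL261 and CT2A were implanted, and tumor cells were sorted from the tumors with beads, which gave 4 GL261 and 3 CT2A sorted libraries. A further 3 GL261 and 5 CT2A sorted libraries came from lines grown as neurospheres rather than as adherent cultures. The sources used here do not say whether any line was a single clone. The titles of the 5 CT2A neurosphere libraries name GL261, but CT2A is given both as their cell line and in their descriptions, and this was followed. Over 14900 genes these 5 libraries correlated at 0.957 to 0.986 with the mean of CT2A sorted libraries and at 0.816 to 0.825 with that of GL261 sorted libraries. The 3 GL261 neurosphere libraries correlated at 0.813 to 0.827 with CT2A and at 0.939 to 0.956 with GL261.

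WNT proteins are secreted lipid-modified ligands that bind frizzled receptors. With LRP5 or LRP6 as co-receptor, they stabilize beta-catenin, which enters the nucleus and acts with the TCF/LEF factors on target genes such as Axin2; this is the canonical branch. Other WNT proteins, of which WNT5A and WNT11 are the best known, signal mostly without beta-catenin through ROR, RYK and frizzled receptors and steer cell polarity and movement; this is the noncanonical branch. The assignment of a ligand to a branch is a convention, since the receptors present also decide the outcome. WNT signaling patterns the developing brain, and WNT7A and WNT7B are known for their part in the growth of brain blood vessels.

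Levels are given as TPM, a length-adjusted measure of a transcript's part in all transcripts of a library, as the authors estimated it with Salmon, here summed over the transcripts of a gene. Changes are log2 fold changes of read counts, CT2A relative to GL261, each given ± its standard error, from quasi-likelihood F-tests in edgeR. P-values were adjusted over all genes tested by the method of Benjamini and Hochberg, and a change was called at an adjusted p under 0.05. Genes with a mean normalized count of 10 or less in a comparison were below the minimum and were not tested. The total per library was 34597135 to 42590802 reads in GL261 bulk tumors and 7384590 to 15243502 in all other groups, so that depth differed with the line in bulk tumors.

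The libraries still held RNA of other cells. Summed over 9 neuronal markers, bulk tumors had 145 to 2443 TPM and sorted cells 8.70 to 79.1 TPM. GL261 bulk replicate 405 had the lowest neuronal sum of the bulk tumors (145 TPM) and also the lowest value in its group for 21 of the 35 members with a mean of at least 1 TPM there. Summed over 13 macrophage markers, GL261 neurosphere libraries had 6426 to 9505 TPM, CT2A neurosphere replicate 59 had 3096 TPM, and the other CT2A neurosphere libraries had 731 to 1695 TPM. In adherent-line sorted cells this sum was 1020 to 1956 TPM in CT2A and 819 to 1560 TPM in GL261 apart from replicate 81 (249 TPM). All 13 markers had a higher mean in CT2A, but replicate 81 lowers the GL261 means. Without it the summed ranges of the lines overlapped, and the directions of single markers were not computed. Endothelial markers summed to 35.7 to 57.9 TPM in CT2A and 37.3 to 183 TPM in GL261 sorted libraries, with 9 of 10 lower on average in CT2A. Choroid plexus markers summed to 762 TPM in CT2A bulk replicate 48 and 1.83 to 26.9 TPM in the other bulk tumors. The part of these cells in the line differences was not tested. Oligodendrocyte markers summed to 168 to 519 TPM in sorted cells of adherent lines, and 8.02 to 225 TPM in CT2A neurosphere libraries. In whole tumors, a lower level can come from fewer cells of a type or from less RNA per cell, and these cannot be told apart.

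Most WNT genes that differed between the lines were higher in CT2A. In bulk tumors, 45 of the 50 members were tested, of which 11 were higher and 4 lower in CT2A and 30 did not pass the threshold. The background was 11.4% of 16434 genes higher and 11.9% lower. Without GL261 replicate 405, 15 members were higher and 3 lower, and without CT2A replicate 39 or 40 or GL261 replicate 414 or 417 only 1 member was lower. In sorted cells, 31 members were tested, of which 18 were higher, 7 were lower and 6 did not pass, against a background of 24% higher and 26.8% lower among 13789 genes. In neurosphere-derived tumors, 30 members were tested, of which 19 were higher, 5 were lower and 6 did not pass, against 30.0% higher and 29.6% lower among 13733 genes. The share of members that were higher was above the background in all 3 comparisons, and the share that were lower was near or below it. The median log2 fold change of the members tested was 0.23 in bulk tumors, 1.63 in sorted cells and 1.89 in neurosphere-derived tumors, where the medians of all genes were -0.05, -0.01 and 0.03. These medians cover different members. In sorted cells, Wnt9a, Wnt11, Fzd8, Ror1, Sfrp4, Dkk2 and Rspo3 held 3 to 35 reads in all in GL261 and reached the minimum count through CT2A. Wnt4, Wnt6, Fzd9 and Frat1 held 1 to 23 reads in all in CT2A and reached it through GL261. In neurosphere-derived tumors, Wnt9a, Wnt11, Fzd8, Frzb and Rspo3 held 3 to 26 reads in all in GL261 and reached it mostly through CT2A. Fzd6, Fzd9 and Frat1 held 45 to 47 reads in all in CT2A there and reached it mostly through GL261. Their direction was thus set in part by the minimum, and so were the counts and medians.

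Of 30 members tested in all 3 comparisons, 11 were higher in each. They were the ligands Wnt5a, Wnt9a and Wnt11, the receptors Fzd8, Lrp5 and Ryk, the antagonists Sfrp4 and Dkk2, and the nuclear factors Lef1, Tcf7 and Tcf7l2. Of all 13324 genes tested in all 3, 9.36% were higher in each. Fzd6 and Frat1 were lower in each, where 9.21% of genes were. Wnt9a, Wnt11, Fzd8, Sfrp4 and Dkk2 held 3 to 35 reads in all in GL261 sorted libraries and reached the minimum count there through CT2A. Frat1 held 21 reads in all in CT2A sorted libraries and reached it through GL261. These counts were thus also set in part by the minimum. No member was higher in one comparison and lower in another, and 26 members passed the threshold at least once. The shares of all genes for the last 2 statements were not computed, so they only describe the members. Another 5 (Wnt1, Wnt3a, Wnt8b, Wnt9b and Dkk1) were below the minimum count in all 3. The bulk tumors, the sorted cells and the neurosphere-derived tumors share no library.

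**Figure D1:**
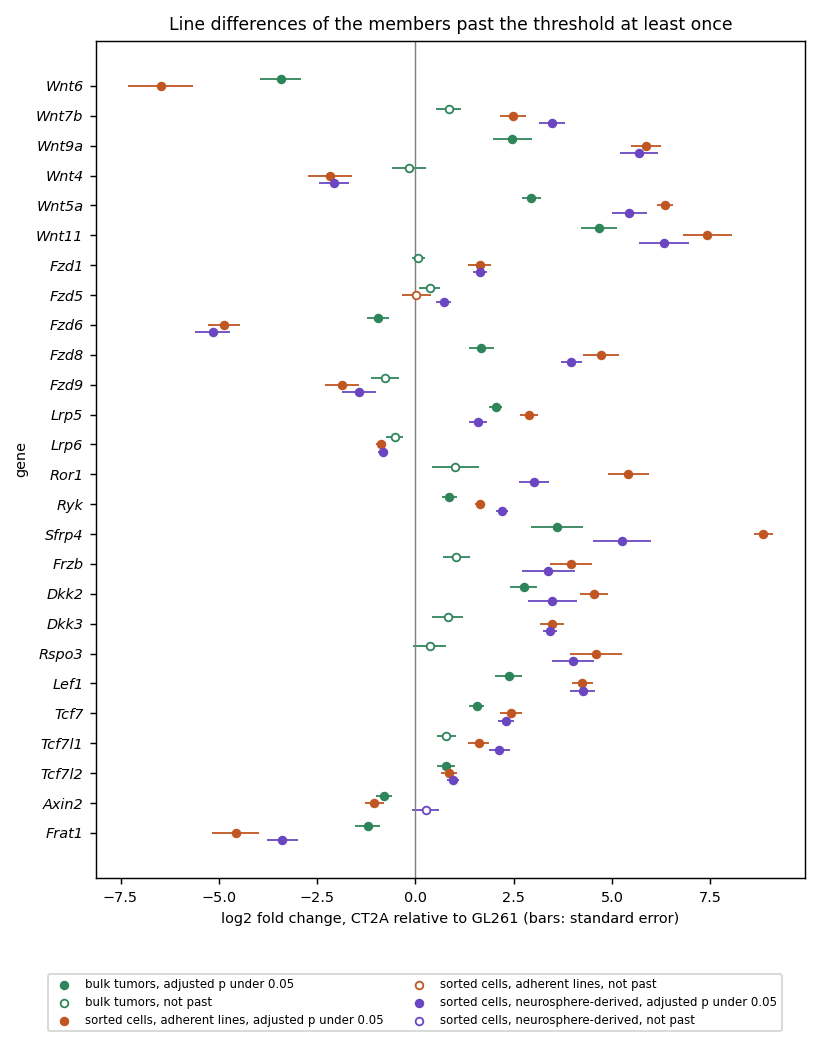
Log2 fold changes of CT2A relative to GL261 (x axis; bars are standard errors) for the 26 members past the threshold in at least 1 line comparison (y axis), in bulk tumors, sorted cells of adherent lines and sorted cells of neurosphere-derived tumors; filled points have an adjusted p under 0.05. Points of sorted cells lie farther from 0 than those of bulk tumors for most genes, for example at 6.35 against 2.94 for Wnt5a; the sorted points of Wnt6 and the sorted and neurosphere points of Wnt11 rest on 3 reads or fewer in the lower group.

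At a mean of at least 1 TPM, 16 members were measured in every group, among them Wnt7b, Lrp5, Lrp6, Ryk, Dkk3 and the 4 TCF/LEF factors. Another 7 reached this level in bulk tumors only, namely Wnt2, Wnt2b, Wnt7a, Wnt10a, Sfrp1, Sfrp2 and Rspo2. Ror1 alone reached it in sorted cells and not in bulk tumors. The remaining 11 that stayed below it in every group were Wnt1, Wnt3, Wnt3a, Wnt8b, Wnt9b, Wnt10b, Wnt16, Fzd10, Ror2, Sfrp5 and Dkk1. The number of members at this level was 35 in GL261 bulk, 35 in CT2A bulk, 22 in GL261 sorted, 25 in CT2A sorted, 24 in GL261 neurosphere and 26 in CT2A neurosphere libraries.

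**Figure D2:**
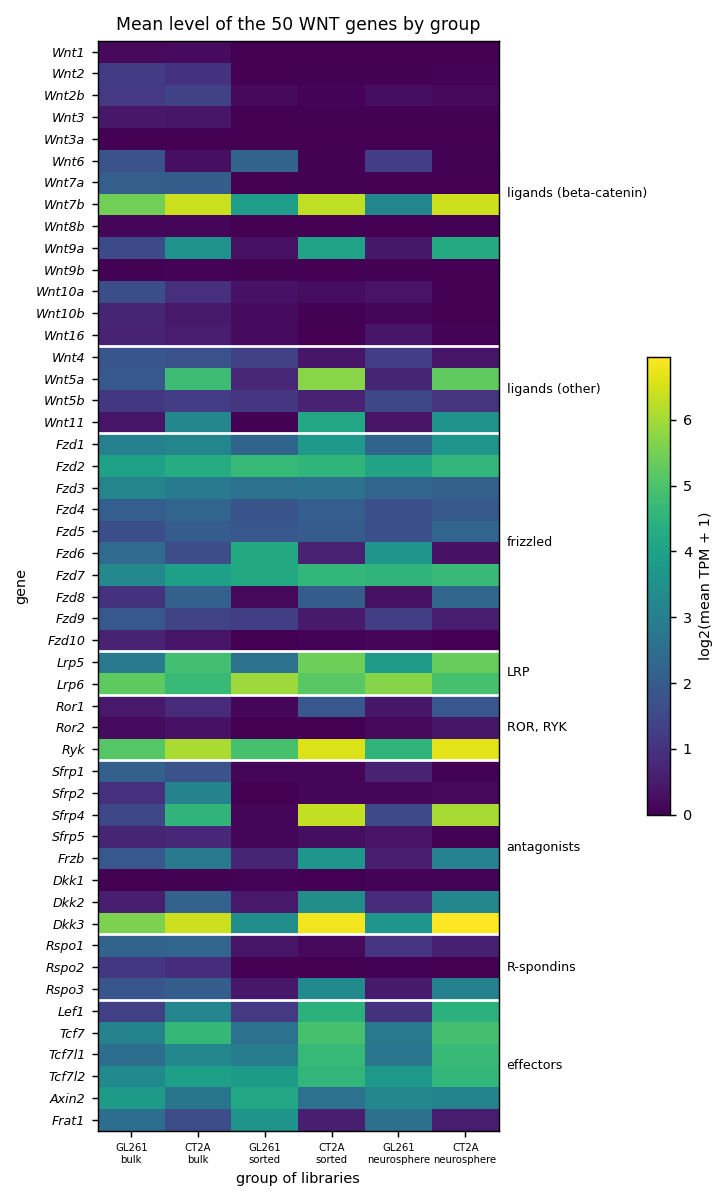
Mean level of each of the 50 members (y axis, ordered by role) in the 6 groups of libraries (x axis), as log2(mean TPM + 1). Dkk3 has the highest mean in the 3 CT2A groups and in GL261 bulk tumors, and Lrp6 in GL261 sorted and neurosphere libraries.

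Among the 14 ligands mostly known for beta-catenin signaling, Wnt7b had the highest level in every group. Wnt7b (ENSMUSG00000022382, chr15:85535437-85582473 of GRCm38, minus strand) stood at 64.4, 32.9, 39.996 and 35.7 TPM in the 4 GL261 bulk tumors and at 97.5, 98.4, 68.8 and 68 TPM in the 4 CT2A bulk tumors. In sorted cells it stood at 5.51, 19.1, 18.3 and 12.5 TPM in GL261 and 82.1, 77.3 and 71.2 TPM in CT2A. Every CT2A library was above every GL261 library in both of these comparisons. In neurosphere-derived tumors the GL261 libraries held 5.85, 9.19 and 9.54 TPM and the CT2A libraries 109.6, 104, 40.7, 83.4 and 92.5 TPM, with replicate 59 lowest among the CT2A libraries. Its log2 fold change was 2.48 ± 0.32 (adjusted p = 0.00034) in sorted cells, 3.48 ± 0.33 (adjusted p = 1.36e-05) in neurosphere-derived tumors and 0.84 ± 0.33 (adjusted p = 0.105) in bulk tumors, where it did not pass. Wnt7b made up 66.4% ± 13.7 (SD, n = 4) of the summed ligand TPM in GL261 bulk tumors and 47.6% ± 1.43 (SD, n = 3) in CT2A sorted cells, the highest and lowest shares among the 6 groups.

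Wnt9a, a ligand known for roles in joint and limb development, was near the floor in GL261 tumor cells. The GL261 sorted libraries held 0.175, 0.101, 0.377 and 0.325 TPM and the CT2A sorted libraries 18.1, 15.5 and 11.3 TPM. Neurosphere-derived tumors held 0.106, 0.267 and 0.711 TPM in GL261 and 10.8, 19.2, 20.5, 15.8 and 23.4 TPM in CT2A. In bulk tumors they were 0.368, 2.45, 3 and 1.89 TPM in GL261, with replicate 405 lowest, and 14.1, 8.89, 8.7 and 11.1 TPM in CT2A. The lines did not overlap in any of these comparisons. The log2 fold change was 5.86 ± 0.38 (adjusted p = 8.57e-06) in sorted cells, 5.69 ± 0.48 (adjusted p = 5.8e-06) in neurosphere-derived tumors and 2.46 ± 0.49 (adjusted p = 0.00908) in bulk tumors.

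Wnt6 was lower in CT2A, as was Wnt4 in tumor cells. It stood at 1.68, 4.53, 2.83 and 5.44 TPM in GL261 sorted libraries, where it ranked after Wnt7b, and at 0, 0 and 0.0888 TPM in CT2A sorted libraries, which held 1 read in all. Relative to the total reads of each group, the ratio of GL261 to CT2A was 123. Its 95% counting interval of 21.8 to 4892 covers counting error only. In bulk tumors it stood at 3.47, 2.19, 2.31 and 1.89 TPM in GL261 and 0.248, 0.088, 0.179 and 0.351 TPM in CT2A, without overlap, and the log2 fold change was -3.43 ± 0.53 (adjusted p = 0.00291), or -2.81 with RSEM counts. In neurosphere-derived tumors the values were 1.42, 1.34 and 1.58 TPM against 0.141, 0, 0, 0 and 0 TPM, and the gene was below the minimum count and was not tested.

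Of the other ligands of this group, 4 (Wnt1, Wnt3a, Wnt8b and Wnt9b) were below the minimum count in bulk tumors, and 11 of the 14 were below it in sorted cells. Wnt7a, which lies close to Wnt7b in sequence and function, stood at 0.966, 6.74, 2.66 and 2.92 TPM in GL261 and 5.08, 1.15, 3.12 and 3.18 TPM in CT2A bulk tumors, and at no more than 0.0205 TPM on average in any sorted group. Wnt10a stood at 2.18 ± 0.588 TPM (SD, n = 4) in GL261 and 0.947 ± 0.656 TPM (SD, n = 4) in CT2A bulk tumors, a log2 difference of -1.28 ± 0.50 (adjusted p = 0.103) that did not pass. Wnt2, Wnt2b, Wnt3, Wnt10b and Wnt16 averaged 0.303 to 1.61 TPM in bulk tumors, with log2 differences of -1.06 to 0.32 between the lines and adjusted p of 0.176 to 0.863.

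The 4 ligands mostly known for signaling without beta-catenin are Wnt4, Wnt5a, Wnt5b and Wnt11. Wnt5a (ENSMUSG00000021994, chr14:28504750-28527448 of GRCm38, plus strand), a ligand of ROR and RYK receptors that steers cell movement, stood at 0.23, 1.27, 0.575 and 0.621 TPM in GL261 sorted libraries and 53.6, 48.7 and 51.8 TPM in CT2A sorted libraries. Neurosphere-derived tumors held 0.539, 0.679 and 0.682 TPM in GL261 and 33.2, 55.5, 12.9, 42 and 41.9 TPM in CT2A. In bulk tumors they were 1.91, 4.33, 2.66 and 2.15 TPM in GL261 and 29.6, 33.5, 24 and 18.6 TPM in CT2A. Each CT2A library was above each GL261 library of its comparison, and CT2A neurosphere replicate 59 was the lowest CT2A library. By edgeR the log2 fold change was 6.35 ± 0.21 (adjusted p = 4.74e-07) in sorted cells, 5.44 ± 0.45 (adjusted p = 6.09e-06) in neurosphere-derived tumors and 2.94 ± 0.25 (adjusted p = 0.000305) in bulk tumors.

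Wnt11 (ENSMUSG00000015957, chr7:98835112-98855195 of GRCm38, plus strand), known for its part in convergent extension movements of the embryo, was close to absent from GL261 tumor cells. The 4 GL261 sorted libraries held 3 reads in all, against 419 reads in the 3 CT2A sorted libraries, where the level was 23.4, 16.6 and 11.3 TPM. Relative to the total reads of each group, the ratio of CT2A to GL261 was 197 (95% counting interval 67.1 to 961). In neurosphere-derived tumors the 3 GL261 libraries again held 3 reads, against 591 in the 5 CT2A libraries at 9.85, 16.6, 3.46, 10.8 and 14.1 TPM, a ratio of 83.0 (28.3 to 404). Bulk tumors showed 0.1, 0.487, 0.112 and 0.509 TPM in GL261 and 5.06, 11.9, 6.46 and 10.001 TPM in CT2A, with a log2 fold change of 4.66 ± 0.46 (adjusted p = 0.000542). Exons of Wnt11 overlap those of Gm8398 on the opposite strand over 364 bases, and Gm8398 reached 1.13 TPM at most in any library. In CT2A sorted and neurosphere libraries the leading transcript, with 46% and 43.0% of the gene's TPM, was Wnt11-202, which is annotated as subject to nonsense-mediated decay.

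The promoter of Wnt11 was examined because its gene had the lowest GL261 read totals in sorted cells among the members called in all 3 comparisons. RefSeq promoter windows on GRCm38.p6, from 250 bases before to 50 bases after a start, were matched for 36 of the 50 members. The first of the 2 windows of Wnt11 (chr7:98834862-98835161, plus strand) follows, with a match to a TCF/LEF word in capitals.
Wnt11: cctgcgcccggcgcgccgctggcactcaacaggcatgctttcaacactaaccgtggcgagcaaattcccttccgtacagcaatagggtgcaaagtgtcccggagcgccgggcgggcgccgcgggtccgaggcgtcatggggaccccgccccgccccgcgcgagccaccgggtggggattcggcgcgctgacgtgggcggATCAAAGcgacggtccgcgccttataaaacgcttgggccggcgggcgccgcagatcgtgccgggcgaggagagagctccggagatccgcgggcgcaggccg
The words searched were CTTTG followed by AA, AT, TA or TT, on both strands, and the capitals show such a word read on the opposite strand, 51 bases before the start. Of 44 windows of members, 7 (15.9%) held a word, and 16.9% of 32851 windows of all genes did, so that the members' share was near that of all genes. A match is a description of letters only.

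Wnt4 was lower in CT2A tumor cells. Its levels were 0.576, 1.98, 2.57 and 0.894 TPM in GL261 and 0.358, 0.314 and 0.343 TPM in CT2A sorted libraries, and 0.886, 1.32 and 2.06 TPM in GL261 and 0.373, 0.303, 0.297, 0.436 and 0.21 TPM in CT2A neurosphere libraries. The lines did not overlap. This gave a log2 fold change of -2.18 ± 0.55 (adjusted p = 0.0109) in sorted cells and -2.08 ± 0.38 (adjusted p = 0.000912) in neurosphere-derived tumors, and in bulk tumors the log2 difference of -0.17 ± 0.43 (adjusted p = 0.857) did not pass. With RSEM counts the sorted value was -2.78. Wnt5b, a close relative of Wnt5a, stood at 1.14 ± 0.55 TPM (SD, n = 4) in GL261 and 0.627 ± 0.335 TPM (SD, n = 3) in CT2A sorted cells and did not pass in any comparison (adjusted p of 0.185, 0.177 and 0.82 in sorted, neurosphere and bulk libraries).

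Summed over all 18 ligands, CT2A libraries held more ligand transcripts, and the noncanonical part was larger in CT2A bulk tumors and sorted cells. The ligand sum was 9.22 to 29.1 TPM in GL261 sorted and 147 to 178 TPM in CT2A sorted libraries. The 4 noncanonical ligands made up 15.0% ± 2.55 (SD, n = 4) of it in GL261 sorted and 43.0% ± 1.20 (SD, n = 3) in CT2A sorted cells. In bulk tumors the share was 10.9% ± 4.66 (SD, n = 4) in GL261 and 27.4% ± 2.40 (SD, n = 4) in CT2A. Neither pair of ranges overlapped. In neurosphere-derived tumors the shares of 27.9% ± 3.23 (SD, n = 3) in GL261 and 31.0% ± 6.4 (SD, n = 5) in CT2A overlapped, while the ligand sums were 11.8 to 17.7 TPM in GL261 and 78.8 to 197 TPM in CT2A. The GL261 share there rested on a noncanonical sum of 3.72 to 4.63 TPM. These shares are descriptions and were not tested.

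**Figure D3:**
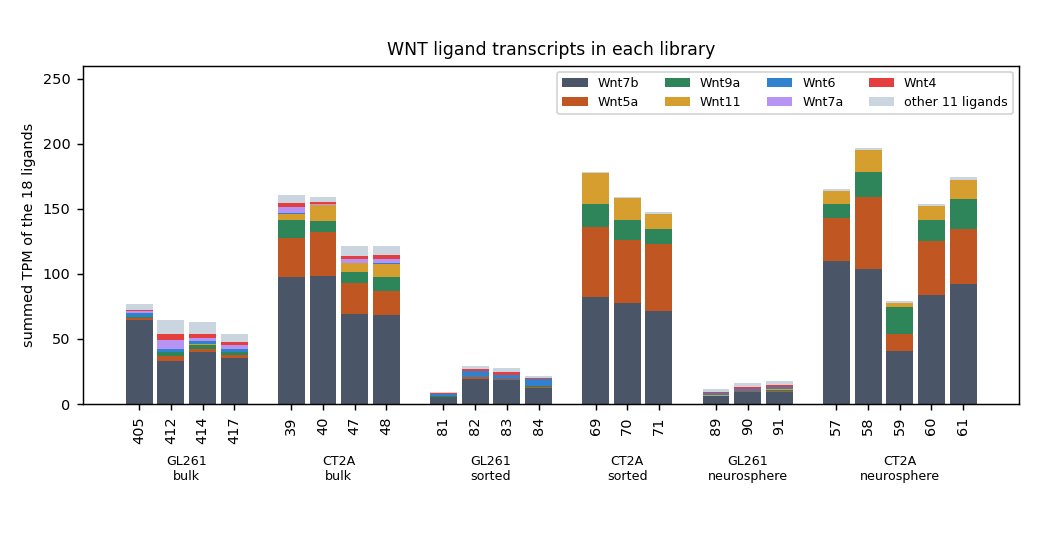
Summed TPM of the 18 WNT ligands in each of the 23 libraries (x axis, replicate numbers by group), split by ligand. Wnt7b makes up the largest part of each bar, Wnt5a, Wnt9a and Wnt11 are visible in CT2A libraries, and CT2A neurosphere replicate 59 has the shortest CT2A bar at 78.8 TPM.

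The frizzled receptors bind WNT ligands at the cell surface. Fzd2 and Fzd7 had the highest levels of the family and did not pass the threshold between the lines. Fzd2 stood at 10.6, 31, 24.2 and 31.1 TPM in GL261 and 25.8, 22.9 and 19.5 TPM in CT2A sorted libraries, with GL261 replicate 81 lowest. Bulk tumors held 14.6, 10.1, 17.7 and 17.2 TPM in GL261 and 24.9, 19, 15.1 and 15.5 TPM in CT2A. In neurosphere libraries it stood at 9.32, 13.6 and 24.3 TPM in GL261 and 20.3, 27.1, 10.6, 29.2 and 29.3 TPM in CT2A. The lines overlapped each time, with log2 differences of 0.23 ± 0.25 (adjusted p = 0.603) in bulk tumors, -0.13 ± 0.29 (adjusted p = 0.739) in sorted cells and 0.59 ± 0.34 (adjusted p = 0.157) in neurosphere-derived tumors.

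Fzd7, a receptor used in stem cells and in mesenchymal development, stood at 14, 16.6, 18 and 22.5 TPM in GL261 and 22.4, 25 and 22.9 TPM in CT2A sorted libraries. Its values were 9.54, 6.05, 10.3 and 8.56 TPM in GL261 and 16.7, 17.3, 13.6 and 9.61 TPM in CT2A bulk tumors. In neurosphere libraries they were 27.2, 20.9 and 18.8 TPM in GL261 and 21.9, 28.5, 23.5, 25.7 and 25 TPM in CT2A. The ranges of the lines overlapped each time, and the log2 differences were 0.63 ± 0.27 (adjusted p = 0.136) in bulk tumors, 0.33 ± 0.14 (adjusted p = 0.0908) in sorted cells and 0.17 ± 0.15 (adjusted p = 0.348) in neurosphere-derived tumors. Fzd2 held the largest share of frizzled TPM in GL261 bulk (28.2%), CT2A bulk (29.8%) and GL261 sorted libraries (31.5%), and Fzd7 in CT2A sorted (31.6%), GL261 neurosphere (35.3%) and CT2A neurosphere libraries (33.7%). By normalized counts, which are not adjusted for transcript length, the share of Fzd2 was 18.7% in GL261 bulk and 20.1% in CT2A bulk libraries, and Fzd3 was the leading receptor there.

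Fzd6, a receptor of planar cell polarity that can restrain beta-catenin signaling, had the clearest decrease of the family. It stood at 26.1, 12.7, 15 and 16.5 TPM in GL261 and 0.282, 0.496 and 0.855 TPM in CT2A sorted libraries. Neurosphere libraries held 13.1, 12.7 and 8.98 TPM in GL261 and 0.0557, 0.457, 0.368, 0.369 and 0.0991 TPM in CT2A. These ranges were far apart, whereas in bulk tumors the values of 4.45, 5.51, 4.27 and 3.31 TPM in GL261 and 1.35, 1.77, 1.92 and 3.42 TPM in CT2A overlapped at CT2A replicate 48. The fitted log2 fold change was -4.87 ± 0.40 (adjusted p = 2.93e-05) in sorted cells, -5.16 ± 0.44 (adjusted p = 6.59e-06) in neurosphere-derived tumors and -0.96 ± 0.28 (adjusted p = 0.0386) in bulk tumors. The bulk call was lost in 7 of 8 fits with a library left out (adjusted p of 0.0632 to 0.101), the exception being the fit without CT2A replicate 48, and it was also lost with RSEM counts in place of Salmon reads (adjusted p = 0.103).

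Fzd8 and Fzd1 were higher in CT2A tumor cells. Fzd8, which binds ligands of the canonical branch, averaged 0.116 ± 0.0748 TPM (SD, n = 4) in GL261 and 3.15 ± 0.401 TPM (SD, n = 3) in CT2A sorted cells, a log2 fold change of 4.72 ± 0.45 (adjusted p = 6.86e-05), and was 1.68 higher on the log2 scale in bulk tumors (adjusted p = 0.00648). Fzd1 stood at 4.2, 3.7, 5 and 2.07 TPM in GL261 and 13.2, 11.3 and 12.5 TPM in CT2A sorted libraries, and at 3.3, 3.25 and 4.77 TPM in GL261 and 9.37, 12.6, 12.5, 11.9 and 11.3 TPM in CT2A neurosphere libraries. In bulk tumors its values of 6.12, 6.89, 9.28 and 7.26 TPM in GL261 and 9.55, 8.74, 7.88 and 6.61 TPM in CT2A overlapped. The log2 fold change of Fzd1 was 1.63 ± 0.29 (adjusted p = 0.00197) in sorted cells and 1.65 ± 0.18 (adjusted p = 2.82e-05) in neurosphere-derived tumors, against 0.08 ± 0.17 (adjusted p = 0.832) in bulk tumors, which did not pass.

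Fzd9 was lower in CT2A sorted cells, by a log2 fold change of -1.86 ± 0.43 (adjusted p = 0.00693), and in CT2A neurosphere-derived tumors, by -1.43 ± 0.44 (adjusted p = 0.017), at group means of 0.418 to 1.46 TPM. The latter call was lost without GL261 neurosphere replicate 91 (adjusted p = 0.0887). Fzd5 passed in neurosphere-derived tumors alone, at 0.72 ± 0.19 (adjusted p = 0.00771), with means of 2.27 ± 0.241 TPM (SD, n = 3) in GL261 and 3.84 ± 0.461 TPM (SD, n = 5) in CT2A. Whether this differed from sorted cells of adherent lines was tested as a difference of differences and did not pass (0.65, adjusted p = 0.396). Fzd3 and Fzd4 had means of 2.27 to 7.93 TPM and did not pass in any comparison. Fzd10 averaged 0.591 TPM in GL261 bulk tumors and was below the minimum count in sorted cells.

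The LRP co-receptors, which pair with frizzled receptors in the canonical branch, differed between the lines in opposite directions. Lrp5 (ENSMUSG00000024913, chr19:3584828-3686564 of GRCm38, minus strand) stood at 2.55, 5.96, 6.37 and 5.84 TPM in GL261 and 46.2, 41.3 and 39.3 TPM in CT2A sorted libraries. The bulk values were 5.83, 6.47, 6.51 and 7 TPM in GL261 and 31.6, 32.7, 24.4 and 22.4 TPM in CT2A. The neurosphere values were 17.7, 11.9 and 10.1 TPM in GL261 and 39.1, 48.6, 27.6, 45.3 and 38.4 TPM in CT2A. Each CT2A library was above each GL261 library of its comparison, and GL261 sorted replicate 81 was lowest of all 23. The log2 fold change was 2.89 ± 0.24 (adjusted p = 3.05e-05) in sorted cells, 2.05 ± 0.17 (adjusted p = 0.000274) in bulk tumors and 1.59 ± 0.22 (adjusted p = 0.000159) in neurosphere-derived tumors.

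Lrp6 (ENSMUSG00000030201, chr6:134446476-134566965 of GRCm38, minus strand) had the higher level of the pair in every GL261 group. It stood at 54.8, 58.7, 61.3 and 68 TPM in GL261 and 30.3, 37.6 and 37.4 TPM in CT2A sorted libraries, and at 45, 47.4 and 58.9 TPM in GL261 and 25.3, 35.4, 28.8, 32 and 26.5 TPM in CT2A neurosphere libraries. The lines did not overlap in either. Bulk values of 35, 28.6, 44.8 and 38.1 TPM in GL261 and 27.6, 25.7, 22 and 26.3 TPM in CT2A did not overlap either. Its log2 fold change was -0.88 ± 0.12 (adjusted p = 0.00046) in sorted cells, -0.83 ± 0.12 (adjusted p = 0.000227) in neurosphere-derived tumors and -0.52 ± 0.21 (adjusted p = 0.114) in bulk tumors, which did not pass. Lrp6 exceeded Lrp5 in mean TPM in GL261 sorted cells (60.7 against 5.18), and Lrp5 exceeded Lrp6 in CT2A sorted cells (42.3 against 35.1).

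Among receptors that act without LRP, Ryk had the highest level and was higher in CT2A. Ryk, an atypical receptor tyrosine kinase with a WNT-binding domain, stood at 26.5, 27.7, 27.9 and 35.8 TPM in GL261 and 91, 96 and 101 TPM in CT2A sorted libraries. In bulk tumors it stood at 37.7, 31, 35.8 and 32.1 TPM in GL261 and 73, 78.2, 58 and 57 TPM in CT2A. In neurosphere libraries it stood at 19.9, 22 and 25.2 TPM in GL261 and 88.2, 108, 111, 96.4 and 97.6 TPM in CT2A. No ranges overlapped. By edgeR the log2 fold change was 1.64 ± 0.12 (adjusted p = 1.76e-05) in sorted cells, 2.21 ± 0.14 (adjusted p = 1.12e-06) in neurosphere-derived tumors and 0.86 ± 0.19 (adjusted p = 0.0144) in bulk tumors, and the bulk call was lost without CT2A replicate 39 (adjusted p = 0.0531).

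Ror1, a receptor of WNT5A, averaged 0.0596 ± 0.0337 TPM (SD, n = 4) in GL261 and 2.69 ± 1.1 TPM (SD, n = 3) in CT2A sorted cells, a log2 fold change of 5.41 ± 0.52 (adjusted p = 6.93e-05). The GL261 sorted libraries held 8 reads of Ror1 in all. In neurosphere-derived tumors the means were 0.345 ± 0.16 TPM (SD, n = 3) in GL261 and 2.7 ± 0.614 TPM (SD, n = 5) in CT2A, a log2 fold change of 3.01 ± 0.38 (adjusted p = 9.01e-05). In bulk tumors the log2 difference of 1.01 ± 0.60 (adjusted p = 0.279) did not pass. Ror2, the other ROR receptor, averaged at most 0.313 TPM in any group, and in the CT2A neurosphere group replicate 61 held 1.4 TPM where the others held up to 0.0935 TPM. The value of replicate 61 rested on 2 reads, and replicate 58 held 3 reads at 0.0935 TPM.

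**Figure D4:**
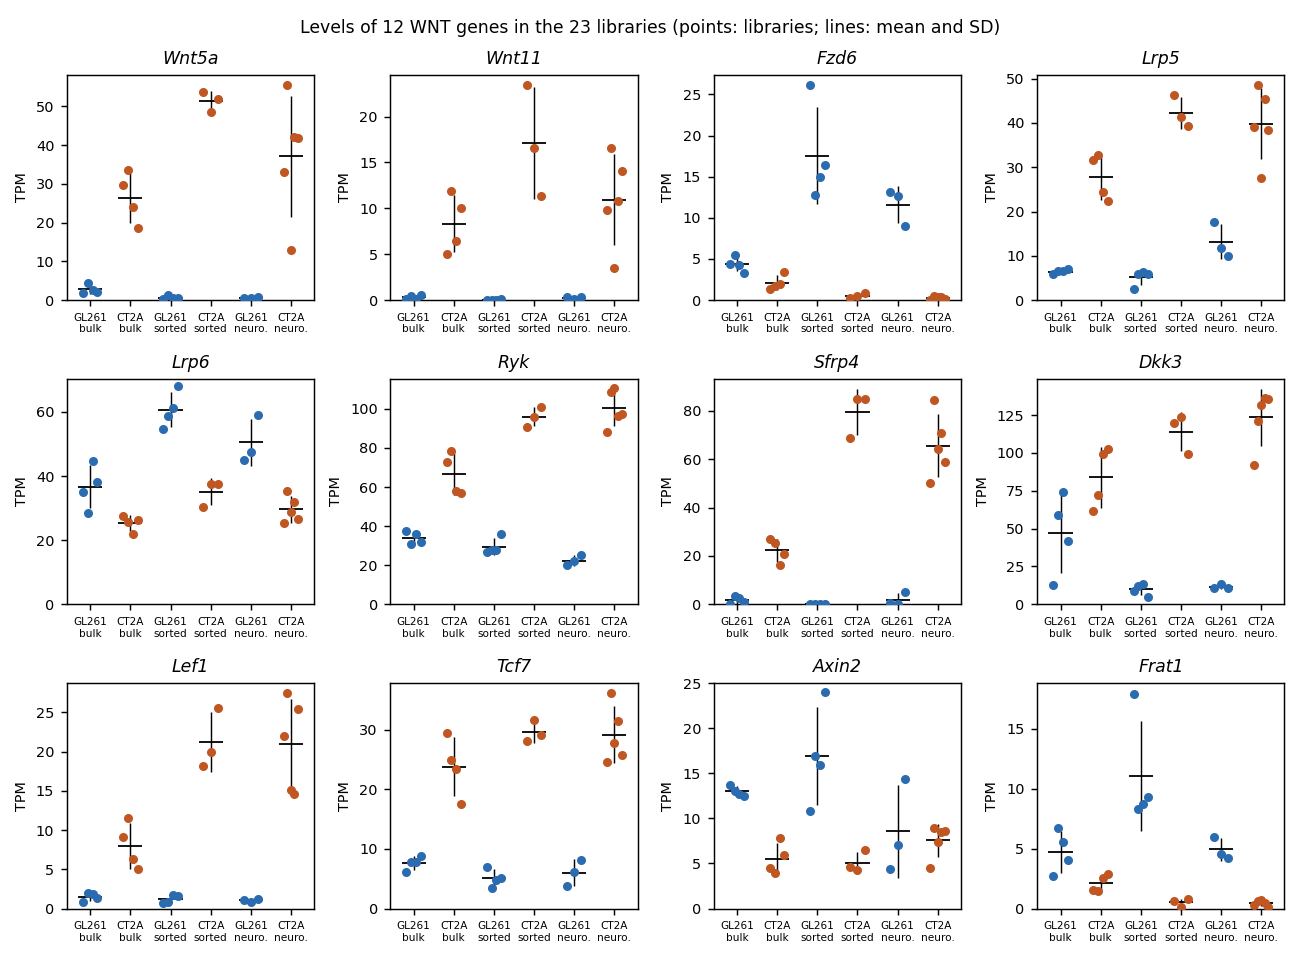
TPM of 12 members (y axes, each from 0) in the 23 libraries, with points for libraries and black lines for the mean and SD of each of the 6 groups (x axis; neuro. stands for neurosphere). The CT2A points lie above the GL261 points of the same preparation for Wnt5a, Wnt11, Lrp5, Ryk, Sfrp4, Lef1 and Tcf7, and below them for Lrp6 in all preparations.

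The secreted antagonists that passed the threshold were all higher in CT2A. Sfrp4, a secreted frizzled-related protein that binds WNT ligands, stood at 0.0376, 0.1, 0.113 and 0.0771 TPM in GL261 sorted libraries, which held 6 reads in all, and at 68.8, 85 and 84.9 TPM in CT2A sorted libraries. Bulk tumors held 0.219, 3.6, 2.47 and 1.06 TPM in GL261, with replicate 405 lowest, and 27.1, 25.2, 16.1 and 20.7 TPM in CT2A. Neurosphere libraries held 0.388, 0.214 and 5.1 TPM in GL261 and 50.2, 84.5, 64.1, 70.7 and 58.9 TPM in CT2A. The CT2A libraries were above the GL261 libraries throughout, and within the GL261 neurosphere group replicate 91 held most of the signal. This gave a log2 fold change of 8.85 ± 0.23 (adjusted p = 2.9e-07) in sorted cells, 5.25 ± 0.74 (adjusted p = 0.000234) in neurosphere-derived tumors and 3.61 ± 0.66 (adjusted p = 0.00626) in bulk tumors. The sorted value rested on 6 reads in GL261 and was 10.88 with RSEM counts and 9.89 with the length offset.

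Frzb, also of the secreted frizzled-related family, stood at 0.694, 0.426, 1.26 and 0.147 TPM in GL261 and 8.54, 9.56 and 16.9 TPM in CT2A sorted libraries. The neurosphere values were 0.676, 0.509 and 0.313 TPM in GL261 and 11, 12.1, 1.19, 3.11 and 10.2 TPM in CT2A. In bulk tumors the values were 1.55, 4.04, 2.99 and 2.41 TPM in GL261 and 6.64, 3.54, 5.72 and 8.03 TPM in CT2A. The lines overlapped in bulk tumors only, and CT2A neurosphere replicates 59 and 60 stood below the other CT2A libraries. The fitted log2 fold change was 3.95 ± 0.53 (adjusted p = 0.000407) in sorted cells and 3.38 ± 0.67 (adjusted p = 0.00156) in neurosphere-derived tumors, and in bulk tumors 1.04 ± 0.34 (adjusted p = 0.0559), which did not pass.

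Dkk2, a Dickkopf protein that binds LRP5 and LRP6 and can inhibit or activate signaling, stood at 0.144, 0.527, 0.567 and 0.374 TPM in GL261 and 10.9, 7.27 and 11.1 TPM in CT2A sorted libraries. The bulk values were 0.357, 0.327, 0.816 and 0.515 TPM in GL261 and 2.7, 4.64, 3.67 and 3.15 TPM in CT2A. In neurosphere libraries it stood at 0.526, 0.481 and 1.28 TPM in GL261 and 8.12, 10.6, 1.8, 8.23 and 12.6 TPM in CT2A. The ranges did not overlap, and CT2A neurosphere replicate 59 was closest to GL261. The log2 fold change was 4.54 ± 0.36 (adjusted p = 2.42e-05) in sorted cells, 3.48 ± 0.62 (adjusted p = 0.000959) in neurosphere-derived tumors and 2.75 ± 0.35 (adjusted p = 0.00132) in bulk tumors.

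Dkk3, a divergent Dickkopf family member whose effect on WNT signaling depends on the cell, had the highest level of the antagonists. It stood at 8.65, 12.2, 13.5 and 4.91 TPM in GL261 and 119, 123 and 99.3 TPM in CT2A sorted libraries. Neurosphere libraries held 11, 13.2 and 10.8 TPM in GL261 and 91.9, 121, 132, 136 and 136 TPM in CT2A. These ranges were far apart, and the log2 fold change was 3.47 ± 0.31 (adjusted p = 4.84e-05) in sorted cells and 3.43 ± 0.18 (adjusted p = 3.69e-07) in neurosphere-derived tumors. Bulk tumors showed 13, 59.1, 74.3 and 41.8 TPM in GL261 and 61.4, 72.2, 99.5 and 102 TPM in CT2A, which overlapped, with a log2 difference of 0.82 ± 0.40 (adjusted p = 0.186) that did not pass. GL261 bulk replicate 405, which was lowest for neuronal markers, was also lowest for Dkk3, and the part of other cells in the bulk level was not tested.

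Sfrp1, Sfrp2 and Sfrp5 were below the minimum count in sorted cells of both lines. In bulk tumors Sfrp1 averaged 3.38 ± 1.64 TPM (SD, n = 4) in GL261 and 2.46 ± 1.11 TPM (SD, n = 4) in CT2A. Sfrp2 stood at 0.475, 0.0915, 28.8 and 1.46 TPM in CT2A bulk tumors, so that its mean rested on replicate 47, and at 0.38, 2.06, 0.712 and 0.486 TPM in GL261. Neither passed the threshold. Dkk1, the classical LRP6 inhibitor, averaged no more than 0.054 TPM in any group.

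R-spondins raise the response to WNT ligands by keeping frizzled receptors at the surface. Rspo3 was higher in CT2A tumor cells, at 0, 0.381, 0.815 and 0.302 TPM in GL261 and 10.4, 6.98 and 9.6 TPM in CT2A sorted libraries. The neurosphere values were 0.288, 0.578 and 0.385 TPM in GL261 and 5.73, 13.5, 2.43, 6.22 and 8.55 TPM in CT2A. The lines did not overlap, and the log2 fold change was 4.60 ± 0.66 (adjusted p = 0.000594) in sorted cells and 4.01 ± 0.54 (adjusted p = 0.000135) in neurosphere-derived tumors. In bulk tumors the values of 0.743, 3.11, 3.99 and 2.79 TPM in GL261 and 3.76, 2.6, 3.21 and 2.94 TPM in CT2A overlapped, with a log2 difference of 0.36 ± 0.42 (adjusted p = 0.618). Rspo1 and Rspo2 were below the minimum count in sorted cells and did not pass in bulk tumors, where Rspo1 averaged 3.68 ± 2.22 TPM (SD, n = 4) in GL261 and 3.81 ± 1.4 TPM (SD, n = 4) in CT2A.

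The 4 TCF/LEF factors, which bind DNA and recruit beta-catenin, were all higher in CT2A sorted cells and neurosphere-derived tumors. Lef1 (ENSMUSG00000027985, chr3:131110471-131224356 of GRCm38, plus strand) stood at 0.705, 0.883, 1.73 and 1.54 TPM in GL261 and 18.1, 19.999 and 25.5 TPM in CT2A sorted libraries. In bulk tumors it stood at 0.828, 1.96, 1.85 and 1.4 TPM in GL261 and 9.17, 11.5, 6.3 and 5 TPM in CT2A. In neurosphere libraries it stood at 1.11, 0.813 and 1.18 TPM in GL261 and 22, 27.4, 15.1, 14.6 and 25.4 TPM in CT2A. The lines did not overlap in any preparation. In neurosphere-derived tumors the log2 fold change was 4.26 ± 0.32 (adjusted p = 2.9e-06), and it was 4.25 in sorted cells (adjusted p = 8.77e-06) and 2.37 in bulk tumors (adjusted p = 0.00213).

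The leading Lef1 transcript was Lef1-202 in CT2A bulk (50.8% of the gene's TPM), sorted (47.5%) and neurosphere libraries (50.4%). It was Lef1-201 in GL261 bulk (71.9%) and neurosphere libraries (98.4%) and Lef1-203 in GL261 sorted libraries (42.7%), where the gene itself was at 1.22 TPM on average. The RefSeq promoter window of Lef1 (chr3:131110073-131110372, plus strand, GRCm38.p6), shown because Lef1 had the highest fold change of the 4 factors, is 1 of 4 windows of this gene. It held none of the TCF/LEF words, and a window at a start inside the gene held 1.
Lef1: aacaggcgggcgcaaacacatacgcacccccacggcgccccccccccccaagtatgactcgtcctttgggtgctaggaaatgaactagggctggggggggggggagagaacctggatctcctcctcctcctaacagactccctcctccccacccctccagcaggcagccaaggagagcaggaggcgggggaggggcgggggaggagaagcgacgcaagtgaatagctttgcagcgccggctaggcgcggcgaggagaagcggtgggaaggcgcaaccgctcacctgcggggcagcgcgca

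Tcf7, which codes for TCF1, stood at 7.04, 3.44, 4.72 and 5.11 TPM in GL261 and 28, 31.6 and 29.2 TPM in CT2A sorted libraries. Bulk tumors held 6.19, 7.81, 7.74 and 8.87 TPM in GL261 and 29.4, 24.9, 23.3 and 17.5 TPM in CT2A. Neurosphere libraries held 3.75, 6.09 and 8.22 TPM in GL261 and 24.6, 36.2, 27.8, 31.5 and 25.7 TPM in CT2A. The ranges did not overlap, and Tcf7-201 held 70.4 to 79.3% of the gene's TPM in all 6 groups. By edgeR the log2 fold change was 2.43 ± 0.29 (adjusted p = 0.000203) in sorted cells, 2.31 ± 0.20 (adjusted p = 8.1e-06) in neurosphere-derived tumors and 1.56 ± 0.19 (adjusted p = 0.00108) in bulk tumors.

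T cells also express Lef1 and Tcf7, and their markers were measured beside these genes. The summed level of 9 T cell markers was 3.16 to 8.80 TPM in CT2A and 18.2 to 26.4 TPM in GL261 sorted libraries, 1.87 to 6.92 TPM in CT2A and 16.9 to 33.9 TPM in GL261 neurosphere libraries, and 15.4 to 34.7 TPM in CT2A and 36.9 to 54.0 TPM in GL261 bulk tumors. In CT2A sorted cells 5 of the 9 markers were under 1 TPM in every library, and all 9 had a lower mean there than in GL261 sorted cells. In bulk tumors 4 of the 9 had a higher mean in CT2A and 5 a lower mean. Much of the gap between the bulk sums came from Lck, at 14.2 to 29.7 TPM in GL261 and 3.67 to 8.65 TPM in CT2A. The part of T cells in these values was not tested.

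Tcf7l1, which codes for the mostly repressive TCF3, stood at 9.26, 6.28, 5.68 and 5.82 TPM in GL261 and 20.7, 23.3 and 29.6 TPM in CT2A sorted libraries. The neurosphere values were 5.72, 4.52 and 6.62 TPM in GL261 and 16.5, 29.2, 37.6, 20.1 and 20.6 TPM in CT2A. In bulk tumors the values were 4.64, 3.73, 5.97 and 4.34 TPM in GL261 and 11.1, 10.2, 5.59 and 7.05 TPM in CT2A, the only preparation in which the lines overlapped. This gave a log2 fold change of 1.61 ± 0.27 (adjusted p = 0.00142) in sorted cells and 2.13 ± 0.27 (adjusted p = 8.08e-05) in neurosphere-derived tumors, and 0.79 ± 0.25 (adjusted p = 0.0524) in bulk tumors, which did not pass.

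Tcf7l2, which codes for TCF4, differed least of the 4 factors. It stood at 15.1, 10.8, 14.2 and 10.9 TPM in GL261 and 21, 26.5 and 21.4 TPM in CT2A sorted libraries. In neurosphere libraries it stood at 13.5, 9.8 and 12.7 TPM in GL261 and 20.7, 26.2, 22.7, 24.6 and 23.9 TPM in CT2A. The bulk values were 8.72, 10.05, 7.15 and 9.23 TPM in GL261 and 19, 11.9, 14.6 and 11 TPM in CT2A. The lines did not overlap, although the gap was narrow in bulk tumors. The fitted log2 fold change was 0.86 ± 0.20 (adjusted p = 0.00777) in sorted cells, 0.96 ± 0.15 (adjusted p = 0.000325) in neurosphere-derived tumors and 0.77 ± 0.22 (adjusted p = 0.0377) in bulk tumors. The bulk call was lost in 6 of 8 fits with a library left out (adjusted p of 0.0546 to 0.117), the exceptions being those without CT2A replicate 48 or GL261 replicate 405.

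Axin2 (ENSMUSG00000000142, chr11:108920349-108950783 of GRCm38, plus strand), a scaffold of the beta-catenin destruction complex and a common target of canonical signaling, did not follow the TCF/LEF factors. It stood at 13.7, 13, 12.7 and 12.4 TPM in GL261 and 4.5, 3.96, 7.81 and 5.92 TPM in CT2A bulk tumors. In sorted cells it stood at 10.8, 16.9, 15.9 and 24 TPM in GL261 and 4.58, 4.24 and 6.46 TPM in CT2A. The GL261 libraries were above the CT2A libraries in both. The log2 fold change was -0.80 ± 0.21 (adjusted p = 0.0239) in bulk tumors and -1.05 ± 0.24 (adjusted p = 0.0065) in sorted cells. With an offset for effective transcript length, edgeR gave -1.78 in sorted cells (adjusted p = 0.000809). In neurosphere libraries the values of 4.38, 6.99 and 14.3 TPM in GL261 and 4.49, 8.91, 7.39, 8.5 and 8.65 TPM in CT2A overlapped, with a log2 difference of 0.26 ± 0.35 (adjusted p = 0.551) that did not pass. The bulk call was lost without CT2A replicate 39 or 40 or GL261 replicate 414 or 417 (adjusted p of 0.0508 to 0.0651).

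In bulk tumors and sorted cells, most of the Axin2 difference in TPM lay outside its main coding transcript. Axin2-201, protein-coding and 4260 bases long, stood at 1.94, 6.14, 3.85 and 6.47 TPM in GL261 and 4.24, 3.87 and 1.76 TPM in CT2A sorted libraries, and at 4.04, 6.25, 6.64 and 4.68 TPM in GL261 and 3.59, 2.89, 5.08 and 5.21 TPM in CT2A bulk tumors. The lines overlapped in both. Axin2-205, annotated as a processed transcript of 1051 bases, stood at 2.82, 8.18, 6.55 and 11.3 TPM in GL261 sorted libraries and 4.94, 2.09, 4.17 and 3.92 TPM in GL261 bulk tumors, and at 0 in all CT2A bulk and sorted libraries. It made up 42.7% of Axin2 TPM in GL261 sorted cells, 29.1% in GL261 bulk tumors and 42.1% in GL261 neurosphere libraries, against 2.8% in CT2A neurosphere libraries. These transcript levels are Salmon's assignment of reads that transcripts share, and they were not tested. The RefSeq promoter window of Axin2 (chr11:108920099-108920398, plus strand, GRCm38.p6), shown because the gene is a standard readout of the canonical branch, held none of the TCF/LEF words.
Axin2: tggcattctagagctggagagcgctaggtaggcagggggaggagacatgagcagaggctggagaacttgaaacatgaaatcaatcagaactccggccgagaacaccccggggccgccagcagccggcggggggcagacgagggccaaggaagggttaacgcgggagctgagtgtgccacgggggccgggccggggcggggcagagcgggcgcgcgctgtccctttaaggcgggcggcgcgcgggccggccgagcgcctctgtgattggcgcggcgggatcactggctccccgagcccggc

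**Figure D5:**
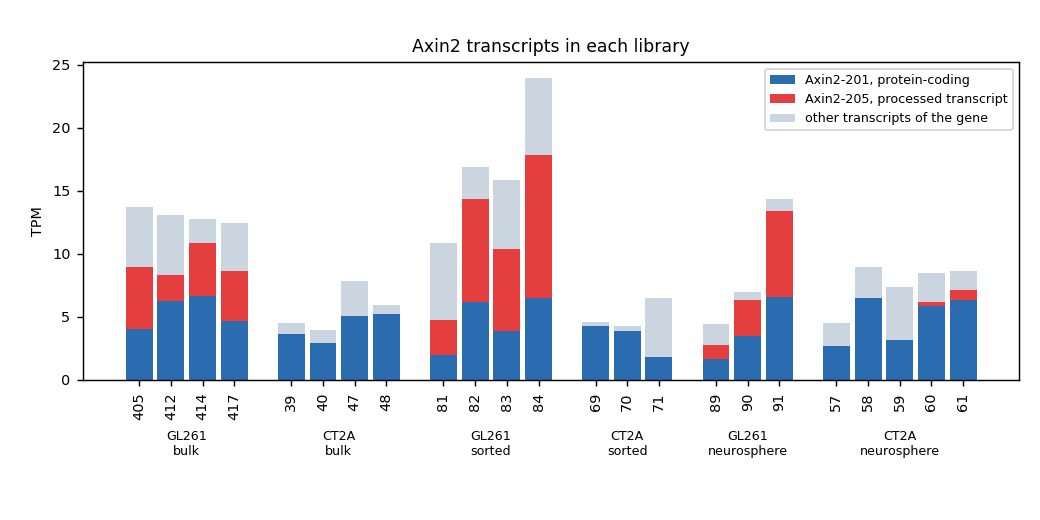
TPM of Axin2 in each of the 23 libraries (x axis, replicate numbers by group), split into the coding transcript Axin2-201, the processed transcript Axin2-205 and all other transcripts of the gene. The blue Axin2-201 parts of GL261 and CT2A sorted libraries overlap, at 1.94 to 6.47 and 1.76 to 4.24 TPM, and red Axin2-205 parts are seen in GL261 libraries and in 2 CT2A neurosphere libraries.

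Frat1, which binds GSK3 and favors beta-catenin stability, was lower in CT2A. It stood at 17.9, 8.29, 8.72 and 9.31 TPM in GL261 and 0.604, 0.145 and 0.768 TPM in CT2A sorted libraries. Neurosphere libraries held 6.01, 4.58 and 4.23 TPM in GL261 and 0.297, 0.642, 0.675, 0.479 and 0.162 TPM in CT2A. The ranges were far apart, with a log2 fold change of -4.57 ± 0.60 (adjusted p = 0.000355) in sorted cells and -3.38 ± 0.40 (adjusted p = 5.35e-05) in neurosphere-derived tumors. Bulk values of 2.73, 6.75, 5.53 and 4.02 TPM in GL261 and 1.55, 1.42, 2.55 and 2.91 TPM in CT2A overlapped, with a log2 fold change of -1.21 ± 0.32 (adjusted p = 0.0251). That call was lost without CT2A replicate 39 or 40 or GL261 replicate 414 or 417 (adjusted p of 0.0509 to 0.0701) and with RSEM counts (adjusted p = 0.0589). When any of these 4 libraries was left out, 1 member in place of 4 was called lower in CT2A bulk tumors.

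Of 63 other WNT pathway genes, written as a list of modulators, intracellular components and targets, 58 were tested in bulk tumors, where 14 were higher and 7 lower in CT2A, against the background of 11.4% of all genes higher and 11.9% lower. In sorted cells 19 of 51 were higher and 15 lower (background 24% and 26.8%), and in neurosphere-derived tumors 25 of 51 were higher and 13 lower (background 30% and 29.6%). The numbers that were lower lay near the background. Wls, the carrier that WNT proteins need for secretion, was higher in sorted cells at 554 TPM in CT2A against 87.4 TPM in GL261 on average, a log2 fold change of 2.54 ± 0.16 (adjusted p = 6.55e-06). Pygo1, a nuclear partner of beta-catenin, was higher in sorted cells at 3.44 ± 0.18 (adjusted p = 2.99e-06) and in neurosphere-derived tumors at 4.24 ± 0.19 (adjusted p = 1.51e-07). Ptk7, a co-receptor of planar cell polarity, was higher in bulk tumors at 2.69 ± 0.28 (adjusted p = 0.000696), and so was Adgra2, a receptor that with Reck recognizes WNT7 ligands, at 2.06 ± 0.21 (adjusted p = 0.000556). Apcdd1, a membrane inhibitor of WNT signaling, was higher in bulk tumors at 2.07 ± 0.23 (adjusted p = 0.000787) and in sorted cells at 4.58 ± 0.35 (adjusted p = 1.97e-05). Ccn4, a secreted target gene, was higher in bulk tumors at 6.89 (adjusted p = 0.000163).

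On the lower side, Nkd2, an inhibitor that binds Dishevelled, was lower in CT2A bulk tumors by a log2 fold change of -4.16 ± 0.45 (adjusted p = 0.000741). Draxin, a neural antagonist, was lower there at -2.45 ± 0.32 (adjusted p = 0.00156). Lgr4, a receptor of R-spondins, was lower in bulk tumors at -1.19 ± 0.18 (adjusted p = 0.00242) and in neurosphere-derived tumors at -1.89 ± 0.20 (adjusted p = 2.87e-05). Tnik, a kinase that acts with TCF4, was lower in bulk tumors at -1.58 ± 0.24 (adjusted p = 0.00295) and in sorted cells at -2.54 ± 0.30 (adjusted p = 0.00022). Tnfrsf19, a receptor and reported target gene, was lower in sorted cells at -3.81 ± 0.38 (adjusted p = 8.2e-05). Daam2 and Prickle1, a formin-related protein and a polarity protein, were lower in sorted cells at -3.87 (adjusted p = 4.75e-06) and -3.33 (adjusted p = 0.000216). Ctnnb1, which codes for beta-catenin, did not pass between the lines, with log2 differences of 0.34 ± 0.14 (adjusted p = 0.134) in bulk tumors, 0.04 ± 0.13 (adjusted p = 0.817) in sorted cells and -0.23 ± 0.12 (adjusted p = 0.114) in neurosphere-derived tumors.

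Growth as neurospheres before implantation was compared with adherent growth within each line, and few members passed. In GL261, 1 of 25 members tested was higher in neurosphere-derived than in adherent-line sorted cells and 0 were lower, against a background of 8.53% of 13675 genes called in either direction. By edgeR at an unadjusted p under 0.05, 4 members were lower, and by DESeq2 1 was called lower. The member called was Lrp5, with a log2 fold change of 1.39 ± 0.31 (adjusted p = 0.0299) at the levels given above. That call was lost in 5 of 7 fits with a library left out (adjusted p of 0.0558 to 0.133), namely without GL261 neurosphere replicate 89 or 90 or GL261 sorted replicate 82, 83 or 84. Macrophage markers differed between these groups, at 6426 to 9505 TPM in neurosphere-derived and 249 to 1560 TPM in adherent-line cells. So did 5 summed choroid plexus markers, at 368 to 569 TPM and 23.7 to 116 TPM. The part of either in the result was not tested.

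In CT2A, 0 of 27 members tested passed in either direction by edgeR, against a background of 0.167% of 13142 genes. At an unadjusted p under 0.05, edgeR gave 2 higher (Fzd8 and Axin2) and 1 lower (Fzd3), and DESeq2 called 0. The line difference itself was smaller in neurosphere-derived than in adherent-line cells for Lrp5, with a difference of differences of -1.34 ± 0.32 (adjusted p = 0.024) on the log2 scale, and for Ror1, at -2.45 ± 0.64 (adjusted p = 0.0339). These were 2 of 31 members tested, where 6.67% of 13824 genes were called, and 0 members had a larger difference toward CT2A (2 at an unadjusted p under 0.05 by edgeR, and 1 by DESeq2). Each of the 2 calls depended on single libraries, since leaving out CT2A neurosphere replicate 57, CT2A sorted replicate 69 or 70, or GL261 neurosphere replicate 89 ended both. The Ror1 value also rested on 8 reads in all in the GL261 sorted libraries. These tests share the adherent-line sorted libraries with the comparisons above.

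The line difference of many members was smaller in bulk tumors than in sorted cells. Tested as a difference of differences, 17 of 39 members passed, 15 toward GL261 and 2 toward CT2A in bulk tumors, against a background of 13.5% of 15845 genes. Under another scaling, DESeq2 size factors, the median of all genes in this test moved by 0.12, from -0.12. The median of the members that passed the minimum count was -0.92. The part of scaling in these values was not tested. The largest fitted values were those of Sfrp4 at -5.47 ± 0.94 (adjusted p = 0.00194), Ror1 at -4.62 ± 0.92 (adjusted p = 0.00457), Rspo3 at -4.39 ± 0.86 (adjusted p = 0.00428) and Fzd6 at 3.81 ± 0.50 (adjusted p = 0.000265). The GL261 sorted libraries held 6 reads of Sfrp4, 8 of Ror1 and 25 of Rspo3 in all, so these values rest on few reads. Wnt5a differed by -3.55 ± 0.36 (adjusted p = 4.17e-05), and Lef1 by -2.02 ± 0.47 (adjusted p = 0.0112). Tcf7, Tcf7l1, Tcf7l2, Lrp6 and Axin2 did not pass this test, with values of -0.98, -0.92, -0.19, 0.25 and 0.13. Subline, number of cells implanted, sort, read length and sequencer all differed between bulk and sorted libraries and cannot be told apart, and the summed neuronal and oligodendrocyte markers were higher in every bulk tumor than in any sorted library of adherent lines. Their part in the result was not tested.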

How the data were processed

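RNA of 23 ex vivo murine tumors was sequenced as paired reads of 150 bases (bulk tumors) or 37 bases (sorted cells). The authors quantified each library with Salmon on mm10 (GRCm38) transcripts and deposited estimated counts and TPM per transcript, and for the bulk and adherent-line sorted libraries they also deposited RSEM (1.3.3) expected counts per gene after STAR (2.7.7a) alignment. The submitters' processing notes also name DESeq2 1.30.1, and the labels conflict on the library kit. How reads shared by transcripts are divided affects transcript levels and short or overlapping genes.

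Estimated counts of 116546 transcripts were summed per gene (35576 genes) and rounded; 180 transcripts without a gene, 0.0413 to 0.152% of reads per library, were left out. Genes whose TMM-normalized counts averaged more than 10 were tested with edgeR 4.0.16 (quasi-likelihood, robust) in R 4.3.3, with only the groups compared in each fit and adjustment over all genes tested. Differences of differences were fitted as interaction terms. The spread of 3 to 5 libraries per group, and depth, limit the precision, and p-values measure only the spread between these separately numbered tumors. The script was tested on simulated data. Alternatives were DESeq2 1.42.0, its size factors, 2 other count filters, a length offset, RSEM counts, a joint fit, a minimum fold change and leaving out each library. Counting intervals are exact at 95% and cover counting error only.

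Values in every library are given for members past the threshold in at least 2 of the 3 line comparisons with a mean of at least 5 TPM in the higher group, and for leading ligands and receptors. Of the other WNT genes, up to 4 in each direction with the smallest p per comparison were eligible to be named. The members and lists were chosen with earlier results of these data known.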

Additional observations from a re-analysis of the deposited data

Results flagged for a closer look

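The libraries of each group of 4 or 5 were compared for each of the 50 members that reached 1 TPM in any of them. In 9 of these 129 comparisons a single library stood apart from the others. Chance gives about 1 in 20, so this number was near what chance gives. The GL261 sorted group gave 4 of them. Lrp5 was at 2.55 TPM in replicate 81, where the other 3 were at 5.84 to 6.37 TPM. Frat1 was at 17.9 TPM in replicate 81 against 8.29 to 9.31 TPM, and Tcf7l1 at 9.26 TPM in replicate 81 against 5.68 to 6.28 TPM. Ryk was at 35.8 TPM in replicate 84 against 26.5 to 27.9 TPM. Replicate 81 was also lowest for macrophage markers, at 249 TPM, and the part of macrophages in these values was not tested. In GL261 bulk tumors Sfrp5 was at 1.99 TPM in replicate 412 against 0.207 to 0.216 TPM, and Rspo2 at 0.112 TPM in replicate 405 against 1.41 to 1.65 TPM. In CT2A bulk tumors Wnt2 was at 0.24 TPM in replicate 40 against 1.22 to 1.36 TPM, and Sfrp2 at 28.8 TPM in replicate 47 against 0.0915 to 1.46 TPM. Ror2 was at 1.404 TPM in CT2A neurosphere replicate 61 and at most 0.0935 TPM in the others of its group. That value rested on 2 reads, fewer than the 3 reads of replicate 58 at 0.0935 TPM.

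The line difference was smaller in neurosphere-derived than in adherent-line sorted cells for Lrp5, by an interaction term of -1.34 on the log2 scale (edgeR, adjusted p = 0.024), and for Ror1, by -2.45 (adjusted p = 0.0339). The first was lost in 6 and the second in 9 of 15 fits with a library left out (adjusted p of 0.0509 to 0.123 and 0.0516 to 0.105). The Ror1 value rested on 8 reads in all in the GL261 sorted libraries.

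The line difference in bulk tumors was set against that in sorted cells in the same way. Among ligands, the interaction was -1.73 for Wnt7b, -3.56 for Wnt9a, -3.55 for Wnt5a and -3.03 for Wnt11, the last resting on 3 reads in GL261 sorted cells. Among receptors it was -1.67 for Fzd1, -3.21 for Fzd8, -0.96 for Lrp5, -4.62 for Ror1 and -0.88 for Ryk, and it was 3.81 for Fzd6. Antagonists gave -5.47 for Sfrp4, -3.05 for Frzb, -1.92 for Dkk2 and -2.80 for Dkk3, and Rspo3 gave -4.39. In GL261 sorted cells Sfrp4 held 6 reads in all, Ror1 8, Fzd8 16, Wnt9a 19, Rspo3 25 and Dkk2 35. The effectors Lef1 and Frat1 gave -2.02 and 3.24, and Frat1 held 21 reads in all in CT2A sorted cells. Adjusted p ranged from 4.17e-05 for Wnt5a to 0.036 for Wnt11. Calls were lost with a library left out for Lrp5 in 11 of 15 fits (all but those without CT2A bulk replicate 39 or 40, GL261 bulk replicate 412 or GL261 sorted replicate 81), for Wnt11 in 10 (all but those without CT2A bulk replicate 40, CT2A sorted replicate 71, GL261 bulk replicate 405 or 414 or GL261 sorted replicate 84), and for Wnt7b in 4 (CT2A bulk replicate 47, CT2A sorted replicates 69 and 70, GL261 sorted replicate 84). Ryk was lost without GL261 bulk replicate 405 or GL261 sorted replicate 82 or 83, and Dkk2 without CT2A sorted replicate 69 or 71 or GL261 sorted replicate 84.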

How the results depend on the processing

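No called member changed direction under any alternative. In bulk tumors, 22 of 120 values of called members with a library left out and 10 of 120 under other alternatives no longer passed the threshold; these were 0 of 175 and 2 of 200 in sorted cells and 1 of 192 and 3 of 168 in neurosphere-derived tumors. With a library left out, 2474 (without CT2A bulk replicate 39) to 4777 genes, 9 to 15 members higher and 1 to 4 members lower were called in bulk tumors; without CT2A replicate 40 or GL261 replicate 414 the genes were 2557 and 2558. The ranges for the neurosphere difference were 307 (without neurosphere replicate 89) to 2435 genes (without sorted replicate 81), 0 to 1 members higher and 0 to 3 lower in GL261, and 0 (without neurosphere replicate 57 or sorted replicate 70 or 71) to 191 genes (without neurosphere replicate 60) in CT2A; for the neurosphere interaction they were 261 (without GL261 neurosphere replicate 89) to 1267 genes, 0 to 1 members higher and 0 to 2 lower. A minimum log2 fold change of 1 left 2220 genes and 2 members lower in bulk tumors, 4425 genes in sorted cells and 4963 in neurosphere-derived tumors. RSEM counts left 2 members lower in bulk tumors. With no minimum count, 10 members were lower in neurosphere-derived tumors and 2 members higher by the GL261 neurosphere difference. By DESeq2 that difference gave 1873 genes and 1 member lower, and the neurosphere interaction 1541 genes and 1 member higher. The CT2A neurosphere difference, with 22 genes called, gave 302 by DESeq2, 35 with DESeq2 size factors, 60 in the joint fit, 40 with filterByExpr and 87 with no minimum count. The bulk calls of Axin2 (joint fit, adjusted p = 0.0583) and Tcf7l2 (length offset, 0.0976; no minimum count, 0.059) were also lost, as was the Lrp5 bulk interaction with DESeq2 size factors (0.0547). By TMM-scaled counts in place of TPM, the leading frizzled shares were 18.7% in GL261 bulk and 20.1% in CT2A bulk for Fzd2 and 29.4% in CT2A sorted libraries for Fzd7. The causes were not tested. No paired analysis was possible because the groups share no replicate numbers. Depth limits genes with few reads, such as Wnt11 and Wnt6.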
